A study of Rattus norvegicus with 8 samples.

Results

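The genes described here are the acetylcholine transporters and nicotinic receptor subunits of the habenula that were present in a deposited rat expression table: Slc5a7, Slc18a3, Chrna3, Chrnb3 and Chrnb4. They were found as the probe sets whose single gene symbol in the platform annotation was 1 of these 5 names, which gave 5 probe sets, 1 per gene, of the 379 in the table (10921208, 10790340, 10917597, 10792151 and 10917607, in that order). Habenula RNA of 8 rats, all male and of the Sprague-Dawley strain, was hybridised to whole-transcript arrays, 1 array per rat. In the stressed group, 4 rats were held each day for 2 hours in breathable plastic film envelopes, on 14 days, and the other 4 rats stayed unstressed in their home cages. The labels give no age and no allele for either group.

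Acetylcholine is made in cholinergic terminals from choline that the transporter Slc5a7 carries back into the cell, and Slc18a3 then loads the transmitter into vesicles. The nicotinic receptors that it opens are pentamers of alpha and beta subunits. The medial habenula is known for a dense population of cholinergic neurons that project to the interpeduncular nucleus and for an unusually high content of the subunits alpha3, beta3 and beta4, where most brain regions rely on alpha4 and beta2. Chrna3 and Chrnb4 lie side by side in a cluster with Chrna5, and Slc18a3 lies inside the gene for the acetylcholine-forming enzyme, Chat.

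Promoter sequences are shown for the 4 of 5 genes with an entry in the RefSeq promoter table (build GRCr8), because these genes were lower together and 2 of them are neighbours. Each window runs from 250 bases before to 50 after the annotated start, 5′ to 3′ on the minus strand, at chr9:7953460-7953759 for Slc5a7, chr16:7722765-7723064 for Slc18a3, chr8:64311202-64311501 for Chrna3 and chr8:64333060-64333359 for Chrnb4. Capitals mark every match, on either strand, to the GC box GGGCGG, the POU4 core ATTAAT, the core TGACG of the cAMP response element and a single arm of the glucocorticoid response element, AGAACA. No 2 of these letter strings overlap in the windows.
Slc5a7 promoter: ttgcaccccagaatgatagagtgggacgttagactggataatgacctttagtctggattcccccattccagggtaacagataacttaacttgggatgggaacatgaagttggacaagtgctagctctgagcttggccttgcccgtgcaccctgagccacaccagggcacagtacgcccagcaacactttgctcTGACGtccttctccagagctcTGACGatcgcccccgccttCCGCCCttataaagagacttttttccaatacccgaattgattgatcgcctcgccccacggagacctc
Slc18a3 promoter: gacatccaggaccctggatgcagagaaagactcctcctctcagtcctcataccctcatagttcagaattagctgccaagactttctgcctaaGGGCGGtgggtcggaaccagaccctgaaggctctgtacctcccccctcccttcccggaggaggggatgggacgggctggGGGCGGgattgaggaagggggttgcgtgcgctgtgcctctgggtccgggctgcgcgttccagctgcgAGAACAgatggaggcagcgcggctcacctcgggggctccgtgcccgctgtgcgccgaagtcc
Chrna3 promoter: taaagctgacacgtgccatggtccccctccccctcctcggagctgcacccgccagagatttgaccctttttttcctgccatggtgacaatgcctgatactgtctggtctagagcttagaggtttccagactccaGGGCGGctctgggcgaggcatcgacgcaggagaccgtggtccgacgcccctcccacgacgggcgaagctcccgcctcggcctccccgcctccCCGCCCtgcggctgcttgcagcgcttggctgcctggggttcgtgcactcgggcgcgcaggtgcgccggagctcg
Chrnb4 promoter: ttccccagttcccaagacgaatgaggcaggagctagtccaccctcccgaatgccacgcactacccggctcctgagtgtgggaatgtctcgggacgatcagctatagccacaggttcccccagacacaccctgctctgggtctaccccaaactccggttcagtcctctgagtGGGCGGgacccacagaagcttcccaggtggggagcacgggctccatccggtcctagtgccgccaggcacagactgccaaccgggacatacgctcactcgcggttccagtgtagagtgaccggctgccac
The GC box was present in all 4 windows, as it was in 33.1% of the 33469 promoters of the table. Slc18a3 and Chrna3 held 2 GC boxes each, which 17% of promoters match or exceed, and Slc5a7 and Chrnb4 held 1 each. In Slc18a3 and in Chrnb4 a GC box began 79 bases before the start. The cAMP core was found 2 times in Slc5a7, beginning 57 and 36 bases before its start, and in none of the other 3 windows, against 21.2% of all promoters. The glucocorticoid arm was found once, in Slc18a3, 12 bases before its start, against 20.7% of all promoters. The POU4 core, held by 5.21% of promoters, was in 0 of the 4 windows. GC content was 53.0% for Slc5a7, 64.3% for Slc18a3, 66.7% for Chrna3 and 62.3% for Chrnb4, where the median promoter had 51.7%. A match of letters is a description of the window and shows no binding.

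The deposited values are log2 intensities per probe set, and a difference of 1 on this scale is a doubling. Different probe sets are not on 1 scale, so no gene's level is read as higher than another's. The table had itself been chosen on these arrays: no p-value in the authors' deposited table exceeds 0.0499, and no log2 difference there is smaller in size than 0.263. The group differences of the 5 genes therefore describe what the choice selected, and no test of them is reported. The authors' p-values serve below only to show where a gene lay within the choice. Of the 5, Chrnb3 lay nearest to the p-value limit (0.0394 in the authors' deposited table) and Chrna3 nearest to the limit on size (-0.35 in the authors' deposited table). Probe sets outside those limits were not analysed here. Array medians lay between 8.60 and 8.77, and the root mean square difference between arrays over the table lay between 0.146 and 0.270 for rats of a group and between 0.321 and 0.539 for rats of different groups. The labels name no batch or scan day, so none could be examined.

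All 5 genes were lower in the stressed rats, by log2 differences between -0.62 and -0.35, and in none of them did the groups overlap. Groups did not overlap in 83.4% of the whole table either (46.4% in this direction), and limma's adjusted p was under 0.05 for 100% of it (55.4% being lower in stress), so that neither count singles these genes out. The median difference was -0.54 for the 5 genes and -0.34 for the 210 lower probe sets of the table. Among all 379 probe sets ordered from the most lowered, Chrnb4 ranked 6, Slc18a3 14, Slc5a7 17, Chrnb3 26 and Chrna3 97. In bulk tissue, fewer cells of a type and less RNA per cell cannot be told apart.

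Slc5a7, the high-affinity choline transporter, was at 11.04, 11.28, 10.67 and 10.76 in non-stress rats 1, 3, 4 and 5 and at 10.29, 10.29, 10.52 and 10.46 in stressed rats 7, 8, 10 and 12. The lowest non-stress rat stood 0.14 above the highest stressed rat, and the stressed rats split into a lower pair, 7 and 8, and a higher pair. Group means were 10.93 ± 0.28 and 10.39 ± 0.12 (SD, n = 4 each), a difference of -0.54 ± 0.12 (limma standard error), so that the non-stress level was 1.46-fold the stressed level. Slc18a3, the vesicular acetylcholine transporter, was at 8.53, 9.01, 8.44 and 8.40 in the non-stress rats and at 8.04, 7.94, 8.15 and 7.997 in the stressed rats, each in the order of rats just given. Non-stress rat 3 lay well above the other 3 of its group, and the gap between the groups was 0.25. Means were 8.59 ± 0.28 and 8.03 ± 0.09 (n = 4 each), a difference of -0.56 ± 0.11, or 1.48-fold. Both transporters thus differed by nearly the same amount. Slc18a3 shares its locus with Chat, which was the single symbol of none of the 379 probe sets.

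**Figure D1:**
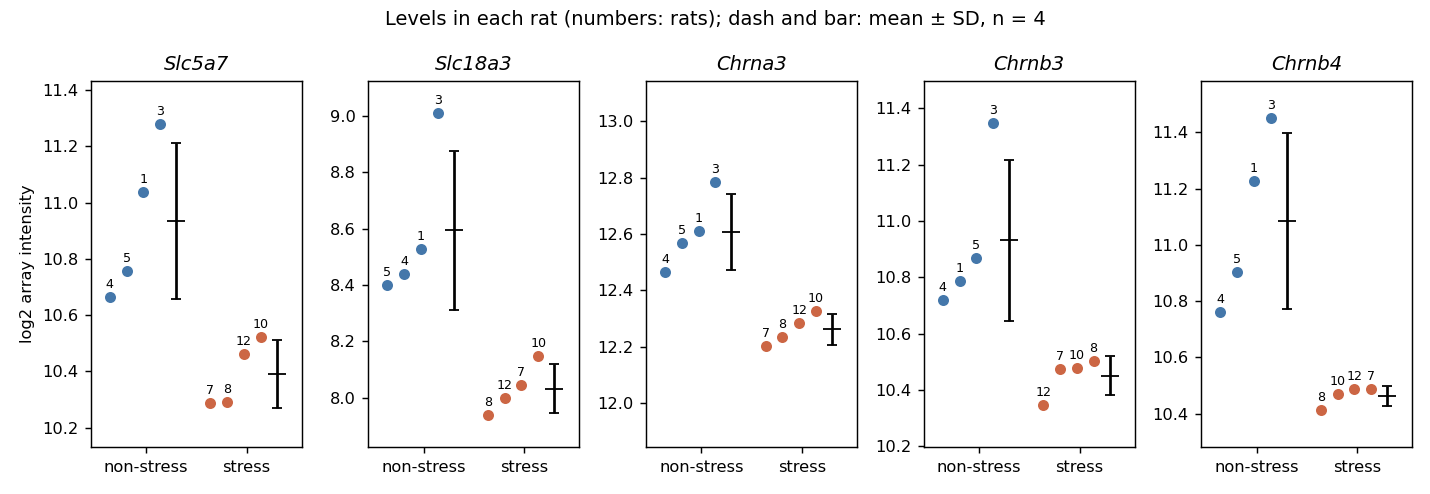
Log2 array intensity of the 5 genes in each rat, with the rat's number beside its point and the group mean ± SD (n = 4) as a dash and bar; each panel spans the same 1.3 log2 units but starts at a different level. In every panel all 4 non-stress rats lie above all 4 stressed rats, and non-stress rat 3 is the highest point.

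Among the receptor genes, Chrna3 encodes the ligand-binding alpha3 subunit. Its level was 12.61, 12.79, 12.46 and 12.57 in non-stress rats 1, 3, 4 and 5 and 12.20, 12.23, 12.33 and 12.28 in stressed rats 7, 8, 10 and 12. The groups were 0.14 apart at their nearest rats, and both were tight. The difference was -0.35 ± 0.08 (12.61 ± 0.13 against 12.26 ± 0.05, n = 4 each), or 1.27-fold, the smallest of the 5.

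Chrnb4 encodes beta4, the partner of alpha3 in the main habenular receptor type. It was at 11.23, 11.45, 10.76 and 10.90 in the non-stress rats and at 10.49, 10.41, 10.47 and 10.49 in the stressed rats. The non-stress rats were spread over 0.69 and the stressed rats over 0.08, with 0.27 between the groups. The difference was -0.62 ± 0.12 (11.09 ± 0.31 against 10.46 ± 0.04, n = 4 each), or 1.54-fold, the largest of the 5.

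Chrnb3 encodes beta3, an accessory subunit that does not form the binding site. It was at 10.79, 11.35, 10.72 and 10.87 in the non-stress rats and at 10.47, 10.50, 10.48 and 10.35 in the stressed rats. Here stressed rat 12 was the lowest of its group and stressed rat 10 was not the highest, unlike in both transporters and Chrna3. The difference was -0.48 ± 0.11 (10.93 ± 0.28 against 10.45 ± 0.07, n = 4 each), or 1.40-fold. Quantile normalization of the chosen table alone, which shifts its median difference by 0.10, brought the differences to -0.13 for Chrna3, -0.30 for Chrnb3 and -0.35 for Slc5a7, smaller by more than 1.5 times. This scaling gives each array the same ordered set of values, and the probe set of Chrna3 has rank 1 on 6 of the 8 arrays and rank 2 on the others, so that the scaling nearly fixes its value. The rank is no measure of its RNA against that of other genes.

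With all 8 rats, the 5 genes varied more among non-stress than among stressed rats. The SD among non-stress rats was 8.77 times that among stressed rats for Chrnb4, 4.07 times for Chrnb3, 3.20 times for Slc18a3, 2.44 times for Chrna3 and 2.33 times for Slc5a7. The median ratio over the table was 1.45, and it was 1.76 over the lower and 1.19 over the higher probe sets. The non-stress SD was the larger in all 5 genes, and in 162 of the 210 lower probe sets (77.1%) and 95 of the 169 higher ones (56.2%). Without non-stress rat 3 it was the larger in 4 of the 5 genes and in 69.5% of the lower probe sets. The ratio then turned below 1 for Slc18a3 (0.747) and came close to 1 for Chrnb3 (1.07), and it was 1.37 for Chrna3, 1.62 for Slc5a7 and 6.69 for Chrnb4. With 4 rats a group such ratios also depend on single stressed rats: without stressed rat 8 the ratio of Chrnb4 was 30.9, without stressed rat 12 that of Chrnb3 was 19.5, and without stressed rat 10 that of Slc18a3 was 5.41. In 4 of the 5 genes, Chrna3 being the exception, the span from the lowest to the highest non-stress rat exceeded the difference between the group means, which was true of 39.6% of the table. Of the squared deviations of the 5 genes from their group means, 91.9% came from non-stress rats and 54.6% from non-stress rat 3 alone.

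Non-stress rat 3 was the highest of its group in all 5 genes and lay on average 0.34 above its group mean. Non-stress rat 4 was the lowest in 4 of the 5 and averaged -0.22, and non-stress rat 5, lowest in Slc18a3, averaged -0.13. Non-stress rat 1 averaged 0.01, but it stood 0.14 above its group mean in Chrnb4 and -0.14 from it in Chrnb3. Among the stressed rats the averages ran only from -0.04 in rat 8 to 0.07 in rat 10. Rat 3 also had the highest median over the 379 chosen probe sets, 8.77, and over the same probe sets it averaged 0.06 above its group, less than in these genes. The level of its whole array was not examined. That average mixes lower and higher probe sets, whose median r with the mean deviation of the 5 genes was 0.618 and -0.201. Rat 3's average over the other lower probe sets alone was not computed, so its deviation cannot be called particular to these genes.

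**Figure D2:**
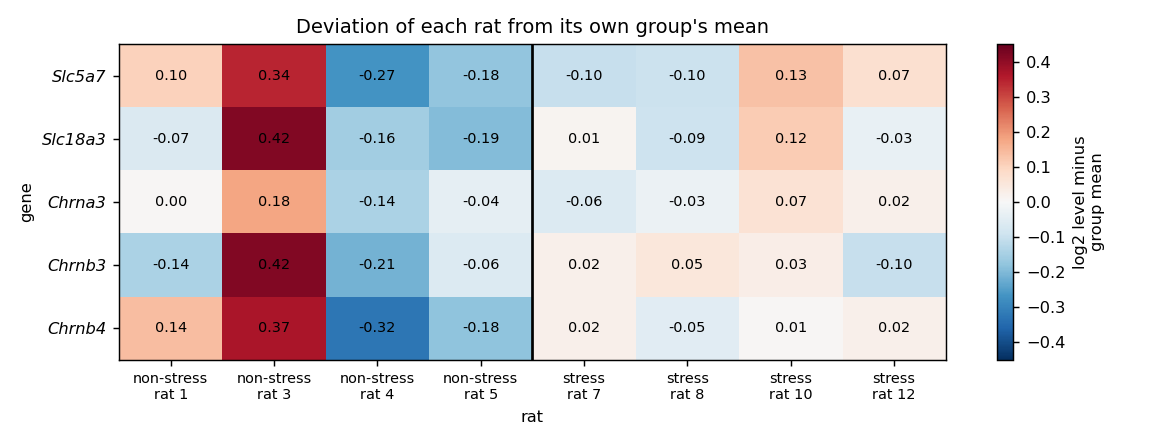
Deviation of each rat's log2 level from the mean of its own group, for the 5 genes (rows) in the 8 rats (columns), with the value printed in each cell. The column of non-stress rat 3 runs from 0.18 to 0.42, whereas no stressed rat departs by more than 0.13.

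Whether the genes moved together from rat to rat was examined on these deviations, which do not contain the group difference. Over the 8 rats, Pearson's r was positive in all 10 pairs of genes, from 0.696 to 0.960, with Spearman's rho from 0.357 to 0.952. Only Slc5a7 with Chrna3 passed an exact permutation of rats within groups, 2-sided, after Benjamini-Hochberg adjustment over the 10 pairs (r = 0.960, p = 0.00174, adjusted p = 0.0174; rho = 0.952, exact permutation p = 0.00174, adjusted p = 0.0174). The p of 0.00174 is the smallest that these permutations can give. The call was lost after median centring of the arrays over the table's probe sets (r = 0.835, adjusted exact permutation p = 0.174). It was also lost after removal of each rat's mean deviation over the table (r = 0.902, adjusted p = 0.0521 by the same permutation). After quantile normalization r was 0.470 (adjusted p = 0.476 by the same permutation). That scaling nearly fixes the value of Chrna3, so this last loss cannot show whether the 2 genes moved together. The other 9 pairs had adjusted exact permutation p-values of 0.0608 to 0.188 for r, and the highest adjusted p for rho was 0.566. The neighbouring genes Chrna3 and Chrnb4 had r = 0.883 (exact permutation p = 0.0313, adjusted p = 0.0608) and rho = 0.619 (exact permutation p = 0.208, adjusted p = 0.282). The 2 transporters had r = 0.865 (exact permutation p = 0.0208, adjusted p = 0.0608) and rho = 0.810 (exact permutation p = 0.0330, adjusted p = 0.165).

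Each r was recomputed without the 2 rats whose deviation in the first gene of the pair lay farthest from that gene's median over the 8 rats. These were non-stress rats 3 and 4, or non-stress rat 3 and stressed rat 10 in the 3 pairs led by Slc18a3. Without them r was above 0 in 6 of the 10 pairs and ranged from -0.588 to 0.879. For Slc5a7 with Chrna3 r was then 0.879 (unadjusted exact permutation p = 0.0208), and the other 9 pairs had unadjusted exact permutation p-values of 0.188 to 0.778. With non-stress rats 3 and 4 left out, 0.0208 is the smallest p that the permutation allows. It is larger in the 3 pairs led by Slc18a3, which lose a rat of each group. A lone pair therefore cannot get below an adjusted p of 0.208 in this permutation over 10 pairs, so Slc5a7 with Chrna3 could not pass alone. Several pairs at their smallest p could have passed together. The other 9 pairs, at 0.188 or more unadjusted, did not reach their smallest possible p. The 4 pairs below 0 were those with Chrnb3. Without non-stress rat 3 alone, r of Chrnb3 with the mean of the other 4 genes went from 0.817 to 0.0171, and that of Slc18a3 from 0.926 to 0.598. The same r went from 0.902 to 0.774 for Chrnb4, from 0.906 to 0.857 for Slc5a7 and from 0.946 to 0.843 for Chrna3. These last values carry no test. As a description of the table, the median r was 0.871 over the 10 pairs of these genes and 0.385 over the 20910 pairs of the 205 other lower probe sets.

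**Figure D3:**
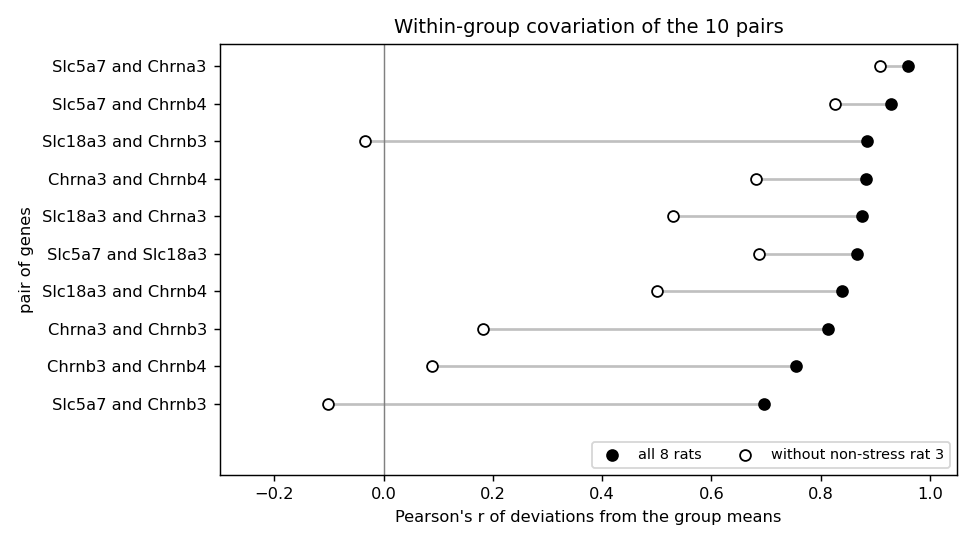
Pearson's r of the deviations from the group means for the 10 pairs of genes, with all 8 rats (filled) and without non-stress rat 3 (open). The 4 pairs with Chrnb3 fall to between -0.101 and 0.182 without that rat, and Slc5a7 with Chrna3 is then at 0.908.

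Ratios between the genes within each rat were compared next. A shift of such a ratio shows unequal change of the signals of its 2 probe sets. Whether their RNA changed unequally was not tested, since probe sets may differ in how far their signal follows RNA. The shift also draws on the contrast that chose the genes, so it is given without a test. The groups overlapped in 9 of the 10 log2 ratios. The exception was Chrna3 over Chrnb4, which was higher in the stressed rats by 0.28 ± 0.10 (standard error from both groups' SDs, n = 4 each), a shift of 1.21-fold. Its values, whose zero has no meaning because the probe sets differ, ran from 1.33 to 1.70 in non-stress and from 1.71 to 1.86 in stressed rats, so the nearest rats nearly touched. The ratios of Slc18a3 and of Slc5a7 to Chrna3 were lower by 0.22 and 0.20 on the log2 scale (differences of -0.22 ± 0.09 and -0.20 ± 0.08), with overlapping groups. The ratio of the 2 transporters to each other shifted by 0.02 ± 0.08, the smallest of the 10, and the ratio of Slc5a7 to Chrnb4 by 0.08 ± 0.06. The ratios of Slc5a7 and of Slc18a3 to Chrnb3 shifted by -0.06 ± 0.12 and -0.08 ± 0.07, and that of Chrnb3 to Chrnb4 by 0.14 ± 0.11. The signal of the receptor gene Chrna3 thus differed least between the groups, and those of the 2 transporters and Chrnb4 differed by similar amounts. Chrnb3 was not set apart from the 2 transporters.

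**Figure D4:**
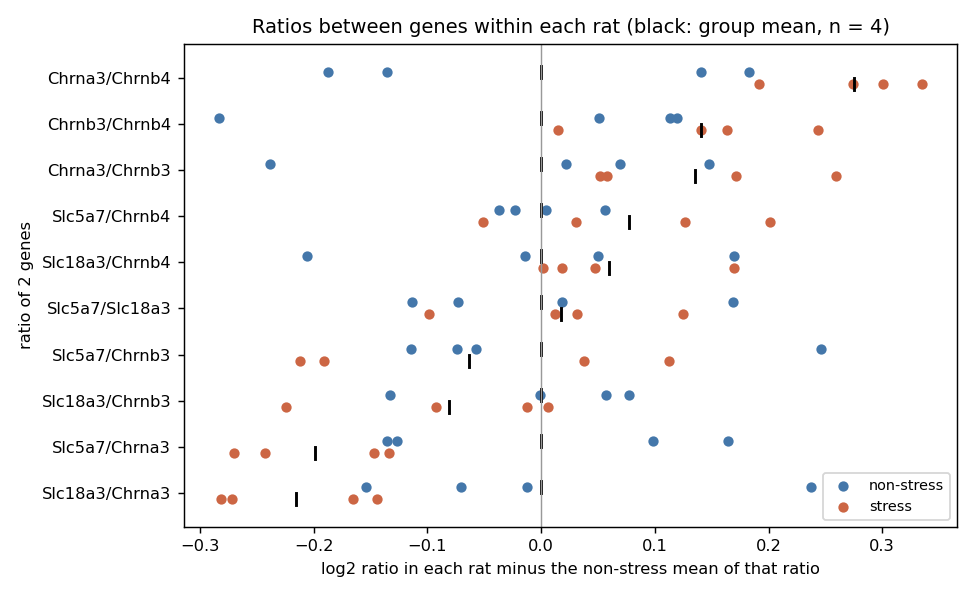
Log2 ratio of each pair of genes in each rat, minus the non-stress mean of that ratio, with non-stress rats in blue, stressed rats in orange and group means (n = 4) as black ticks. Chrna3/Chrnb4 at the top is the pair without overlap, with a mean shift of 0.28, and Slc5a7/Slc18a3 has the smallest shift, 0.02.

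Of a list of 37 cholinergic genes, 6 had a probe set in the table, and all 6 were lower, as were 55.4% of all probe sets of the table. Their median difference was -0.51, against -0.28 over the whole table and -0.34 over its lower probe sets. The member besides the 5 genes above was Prima1, which anchors acetylcholinesterase in the membrane. Its difference of -0.29 was smaller in size than that median of the lower probe sets. Its level was 8.75, 9.04, 8.65 and 8.68 in non-stress rats 1, 3, 4 and 5 and between 8.42 and 8.62 in the stressed rats, of which rat 10 was the highest and rat 12 the lowest. Here the nearest rats of the groups were only 0.03 apart. The difference had a standard error of 0.09 (8.78 ± 0.18 against 8.49 ± 0.09, n = 4 each), and its deviations followed the mean of the 5 genes with r = 0.930 over 8 rats. Chat, the other subunit genes, the muscarinic receptors and the esterases were the single symbol of none of the 379 probe sets. Which genes the 91 probe sets without a symbol measure was not examined. The same holds for Chrna5 and Chrna6, which adjoin Chrna3 and Chrnb3 in the RefSeq annotation, and for the remaining nearest neighbours of the 5 genes (Ube2q2, Sult1c3, Rpl27al9, C16h10orf53, Ercc6 and Rpl13a-ps8). They were not analysed here, and nothing follows about them.

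Genes with the most similar deviations were sought among the other named probe sets by Pearson's r with the mean deviation of the 5 genes over 8 rats, as a description. Ahead of all were Cacna1e, a voltage-gated calcium channel subunit (r = 0.979, group difference -0.40 ± 0.10), and Slc17a7, a vesicular glutamate transporter (0.977, difference -0.31 ± 0.08). The secreted ligand Wnt2 (0.974), the phosphodiesterase Pde2a (0.972), the neurotrophic factor receptor Gfra1 (0.962) and the transcription factor Neurod1 (0.959) followed, with differences of -0.32, -0.38, -0.40 and -0.48. All 6 were lower in the stressed rats. Taken gene by gene, the nearest was Neurod1 for Slc5a7 (r = 0.963), Cacna1e for Slc18a3 (0.953), Slc17a7 for Chrna3 (0.971), the semaphorin Sema3e for Chrnb3 (0.976) and the synaptotagmin-like gene Sytl2 for Chrnb4 (0.997). Each of these was closer than any of the other 4 cholinergic genes was, but each was the highest r among all other named probe sets. A pool so much larger than 4 genes favours a closer match. The margin was small for Slc5a7 and for Chrna3, which had r = 0.960 with each other. Similar deviations were common: of the 205 other lower probe sets 87 had r above 0.7 with the mean of the 5 genes (median 0.618), against 2 of the 169 higher ones (median -0.201).

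Markers of the medial habenula that are not among the 5 genes were lower in the table as well. Of the list's 24 symbols 11 were in the table, 5 of them the genes above. The other 6 were all lower, where 55.4% of the table was, with a median of -0.45. They were Gpr149 (-0.79), the tachykinin precursors Tac1 (-0.52) and Tac3 (-0.44), Adcyap1 (-0.46), the Wnt inhibitor Wif1 (-0.33) and Slc17a7. Their deviations followed the mean of the 5 genes unevenly, with r from 0.467 for Wif1 and 0.703 for Tac1 to 0.897 for Tac3 and 0.977 for Slc17a7. The log2 of their summed intensity was 12.72 to 13.07 in non-stress and 12.45 to 12.50 in stressed rats.

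**Figure D5:**
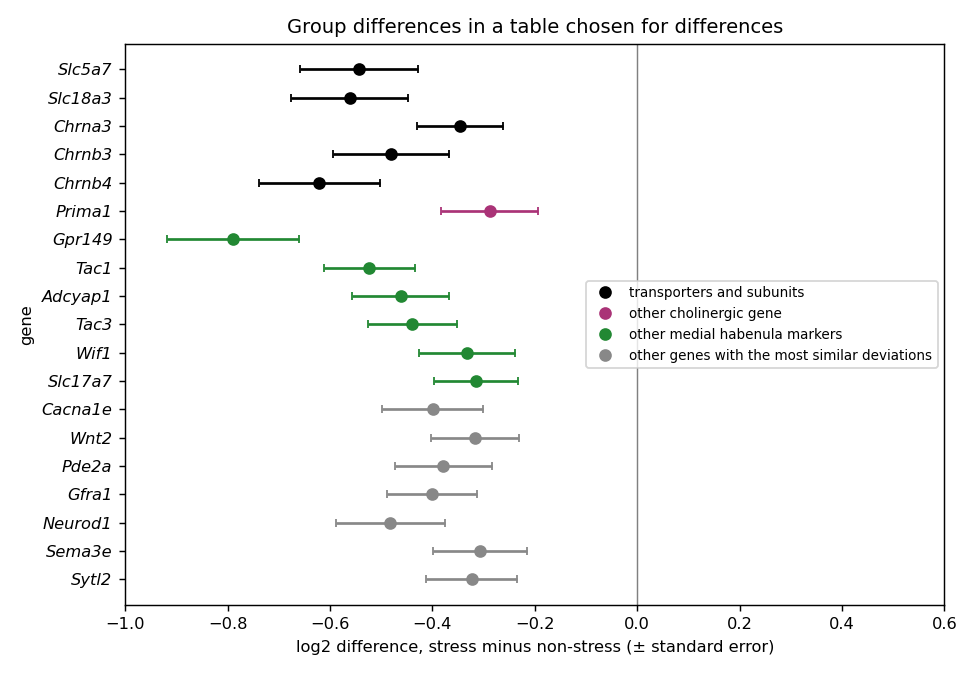
Log2 difference (stress minus non-stress) ± the standard error of the limma fit for the 5 genes, Prima1, the other medial habenula markers of the table and the other genes with the most similar deviations. Every gene drawn is lower in the stressed rats, from -0.79 for Gpr149 to -0.29 for Prima1; the table had been chosen for group differences.

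Markers of neighbouring tissue were in the table as well. Of 10 hippocampal and dentate symbols 3 were in the table, Neurod1 (-0.48), Slc17a7 (-0.31) and Nrgn (-0.28), all lower. Their summed log2 intensity was 12.33 to 12.74 in non-stress and 12.10 to 12.18 in stressed rats, and their mean deviation followed that of the 5 genes with r = 0.963 over 8 rats. Neurod1 and Slc17a7 are also made by medial habenula neurons. Of 10 thalamic symbols only Adarb1, an RNA-editing enzyme made widely in brain, was in the table. It was higher by 0.27 ± 0.08 (11.78 to 12.10 in non-stress and 12.17 to 12.24 in stressed rats), and its deviations ran against those of the 5 genes (r = -0.921). The part of dissection in the lower levels was not tested. Lateral habenula markers went both ways, with Gpr151 at -0.42 (r = 0.835) and Vgf at 0.30 (r = -0.666), as did the microglial markers Gpr34 (-0.58) and Tmem119 (0.37) and the endothelial transporters Slco1a4 (-0.32), Slco1c1 (-0.29) and Slc2a1 (0.27). Summed log2 intensities were 11.96 to 12.26 and 11.81 to 11.89 for the lateral habenula, 10.03 to 10.26 and 10.12 to 10.32 for microglia, and 12.57 to 12.70 and 12.71 to 12.73 for endothelium, non-stress first. Such a sum is led by its brightest probe set, Gpr151 for the lateral habenula and Slc2a1 for endothelium. It therefore gives no direction for a cell type whose markers went both ways. The lists for choroid plexus, ependyma, oligodendrocytes and astrocytes had 0 members in the table, and that for the pineal gland held only Chrna3 and Chrnb4.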

How the data were processed

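Total RNA from the habenula was amplified and biotin-labelled for whole-transcript arrays, per the labels' protocols. The deposited values are log2 intensities per probe set; how they were background-corrected, summarized and normalized is not given in the sources used here. By recomputation, the authors' deposited p-value equals a 2-sided unequal-variance p of the 8 values (to within 1.64e-15) and is unadjusted. Both deposited tables hold the same values (largest gap 0). Gene symbols came from the platform annotation: 283 probe sets had 1 symbol, 5 several and 91 none. A gene was counted as in the table only by a single symbol. The gene IDs of all 5 genes matched RefSeq's.

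Group differences and standard errors came from lmFit and eBayes of limma 3.58.1 (R 4.3.3), without covariates, on all 379 probe sets, after a test on simulated data. The fit draws each standard error towards the spread of probe sets that were chosen for small p-values, so these standard errors may be too small. Covariation was tested on residuals from the group means by exactly permuting the rats of each group (Python 3.11.15). The number of arrays, 8, limits the precision. The labels do not say whether tissues were handled in batches, so the spread between rats may be partly technical. Genes named are the 5, list members in the table, annotated neighbours, the 6 genes most like their mean deviation and the nearest gene to each. The genes and lists were chosen with earlier results of these data known. Alternatives were leaving out each rat, median centring, quantile normalization, linear means, group medians, array weights, a filter on dim probe sets, Spearman's rho and removal of each rat's mean deviation. Leaving out each rat for the spread within groups was added after the values were seen.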

Additional observations from a re-analysis of the deposited data

Results flagged for a closer look

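Of 34 group values of the 5 genes, Prima1, the mean deviation and the 10 ratios, 2 had a rat far from the remaining 3 by Dixon's test, which chance alone would give in about 1 of 20. Both concern non-stress rat 1 and Chrnb3. The log2 ratio of Slc5a7 to Chrnb3 was 0.25 in that rat, against -0.11 to -0.05 in the other non-stress rats. The log2 ratio of Chrnb3 to Chrnb4 was -0.44 in it, against -0.10 to -0.04 in the others.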

How the results depend on the processing

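All 5 genes were lower in the stressed rats under each of the 14 alternatives run for the differences. Only median centring and quantile normalization could have reversed a direction, because the groups did not overlap in any of the 5 genes. The other alternatives keep each group's centre within its own range, so their direction was fixed in advance. Leaving out each rat in turn gave -0.63 to -0.43 for Slc5a7, -0.63 to -0.42 for Slc18a3, -0.39 to -0.29 for Chrna3, -0.55 to -0.34 for Chrnb3 and -0.73 to -0.50 for Chrnb4; for each the smallest difference was without non-stress rat 3. Quantile normalization of the chosen probe sets moved Chrna3 to -0.13, by 0.11 more than the table's own shift of 0.10. The count of 1 pair of genes past the threshold was also 1 with Spearman's rho, and 0 after median centring, 0 after removal of each rat's mean deviation and 0 after quantile normalization, where r of Slc5a7 with Chrna3 was 0.835, 0.902 and 0.470 against 0.960 as deposited. Because quantile normalization nearly fixes the value of Chrna3, the loss under it cannot show whether this pair moved together. Leaving out a rat gave 0 to 4 pairs, 4 without stressed rat 7 and 0 without any other. With 7 rats a lone pair cannot get below an adjusted exact permutation p of 0.0694, but several pairs can pass together. A count of 0 was therefore not forced. Slc5a7 with Chrna3 stood at 0.0694 without non-stress rat 1 or stressed rat 8, 10 or 12. Without non-stress rat 3 the adjusted exact permutation p-values of the 10 pairs ran from 0.347, for Slc5a7 with Chrna3, to 0.986. After quantile normalization r became -0.259 for Chrna3 with Chrnb3 and -0.0782 for Chrna3 with Chrnb4; the cause was not tested. Over the omissions r of Chrnb3 ranged from -0.101 to 0.836 with Slc5a7 and from -0.0332 to 0.936 with Slc18a3, each lowest without non-stress rat 3. The count of ratios without overlap was 1 to 3, with 3 without non-stress rat 5 and 2 without stressed rat 7, 10 or 12. Leaving out each rat for the spread was added after the values were seen: the non-stress SD was the larger in 4 to 5 of the 5 genes, 4 without non-stress rat 3. No paired analysis was possible because the groups share no rat numbers.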

Other observations

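Among the other probe sets with a single gene symbol, the one whose deviations ran most strongly against those of the 5 genes was Usp2. It encodes a deubiquitinating enzyme and was named after its values were seen. Its level was 9.96, 9.79, 10.03 and 9.98 in non-stress rats 1, 3, 4 and 5 and 10.27, 10.28, 10.24 and 10.25 in stressed rats 7, 8, 10 and 12, so that non-stress rat 3, highest in all 5 genes, was the lowest of all rats in Usp2. Means were 9.94 ± 0.10 and 10.26 ± 0.02 (n = 4 each), a difference of 0.32 ± 0.08. Over 8 rats, Pearson's r with the mean deviation of the 5 genes was -0.987 (exact permutation within groups p = 0.00174, the smallest possible) and Spearman's rho -0.857 (exact permutation p = 0.00174). After adjustment over all 374 other probe sets, with or without a symbol, neither passed (adjusted exact permutation p = 0.130 for r and 0.216 for rho). Without non-stress rats 3 and 4, r was -0.879 (unadjusted exact permutation p = 0.0208, the smallest that these 6 rats allow). Usp2 was picked for its r over these same rats, so this value is no independent support.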
